A study of Homo sapiens with 12 samples.

Results

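A set of 40 genes of sugar breakdown and of the response to low oxygen was followed in HCT116 colorectal cancer cells that expressed EHF, CDX1 or both from introduced vectors. The 40 genes were chosen by name, 25 for glycolysis and its control and 15 for the hypoxia response, and all 40 were matched by symbol among 28395 genes of the count table. Each of the 40 was among the 15853 genes that passed the filter on low counts. Their levels separated the lines: SLC2A1, the main glucose transporter of most cells, was lowest in CDX1 cells and highest in empty-vector cells, while a group of hypoxia-inducible genes that included ADM, P4HA1 and P4HA2 was highest in CDX1 cells. Between cells with both factors and EHF cells, SLC2A3 was the only member past 1.5-fold in the fit over all 12 libraries.

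Glycolysis takes up glucose, spends ATP in a set of preparatory reactions that split the sugar, and regains more ATP in the payoff reactions that end in pyruvate, which tumour cells often reduce to lactate and export. Under low oxygen the prolyl hydroxylases EGLN1 and EGLN3 no longer mark the HIF alpha subunits for degradation, and HIF then binds a short core motif near glycolytic and other target genes. HIF activity is set largely at the protein level, so the mRNA of HIF1A is not a readout of it. In the colon, oxygen falls from the crypt base towards the lumen, and the epithelium there shows hypoxia-response genes under normal conditions.

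HCT116 is an established, poorly differentiated human colorectal cancer line. All cells were grown in DMEM-F12 medium with serum. EV cells carried the empty pcDNA plasmid and EHF cells the pcDNA3.1-EHF plasmid, both as geneticin-resistant clones, and EHF is an ETS-family factor of epithelial cells. CDX1 cells were infected with the MSCV-IRES-GFP retrovirus that encodes CDX1, a caudal-type homeobox factor of the intestine, and were sorted for GFP. EHF+CDX1 cells were CDX1 cells that were transfected with the EHF plasmid and grown out as geneticin-resistant clones. The CDX1 line therefore differed from EV cells in vector and selection as well as in CDX1, and these cannot be told apart from CDX1 itself. EHF+CDX1 cells likewise differed from CDX1 cells in plasmid, selection and cloning as well as in EHF. EV, EHF and EHF+CDX1 cells grew from resistant clones, so differences between clones cannot be told apart from effects of the factors. Oxygen, glucose, lactate and HIF protein were not measured here. Each line had 3 poly(A) RNA libraries. The labels do not say whether these came from separate cultures, and the study describes fewer biological replicates than libraries for its clustering of these RNA data, so p-values measure the spread between libraries, which may be technical.

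Library totals ranged from 13523007 to 74186741 counts. EHF read 237 to 335 CPM (counts scaled by library size and TMM factor) in EV cells, 11.9 to 13 in CDX1 cells, and 17115 to 19890.4 in the EHF and EHF+CDX1 libraries. CDX1 read 487 to 559 CPM in CDX1 cells and 5108 to 5639 in EHF+CDX1 cells, and 4 reads or fewer in each other library. The amount of CDX1 thus also differed between those lines, and CDX1 cells held less EHF than EV cells. Normalization factors were 0.799 to 0.845 in the CDX1 libraries and 0.973 to 1.09 in the others. Summed over 7 epithelial markers the level was 5308 to 5756 CPM in EV, 4673 to 4801 in EHF, 2920.2 to 3508 in CDX1 and 4944 to 5206 in EHF+CDX1 cells. In CDX1 against EV cells 3 of the 7 were repressed and 1 induced, where 23.3% and 21.3% of all genes were. Among markers of other cell types COL1A2, DCN, LUM, PTPRC, CD3E and CDH5 were at or near 0 throughout, although the 6 fibroblast markers summed to 168 to 220.1 CPM in CDX1 and 34.5 to 76.7 CPM in EV cells, nearly all from COL1A1. The 6 leukocyte markers summed to 80 to 91.7 CPM in CDX1, 41.2 to 45.1 in EHF+CDX1 and 2.51 to 15 in the other lines, mostly from CD68 and, in EHF+CDX1 cells, LYZ. The 4 endothelial markers summed to 2.04 CPM at most. The part of these markers in the results was not tested.

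EV replicate 3 stood apart from the other EV libraries, in these genes and over the tested genes at large. A chi-square per degree of freedom over tested genes, which also grows with depth, was 323 and 294 against EV replicates 1 and 2. Between those 2 libraries it was 4.18. In EV replicate 3, 13 of the 15 glycolytic enzymes were lower than the mean of EV replicates 1 and 2. Of these, 7 were lower by more than 2-fold. The median log2 difference over the 15 was -0.90, against 0.08 over all genes, a median that the scaling keeps near 0. GAPDH read 3142 and 3134 CPM in EV replicates 1 and 2 and 1236 CPM in EV replicate 3. The glycolytic enzymes held 1.21% and 1.18% of all counts in EV replicates 1 and 2, 0.502% in EV replicate 3, and 0.472% to 0.544% in the CDX1 libraries. All 10 proliferation markers, among them MKI67 and MCM2, moved the same way, with a summed level of 739 CPM in EV replicate 3, up to 2161 CPM in the other EV libraries and 645 to 807 CPM in CDX1 cells. Of the 10, 6 were repressed in CDX1 against EV cells, where 23.3% of all genes were, and 9 without EV replicate 3, where 24.8% were. In EHF+CDX1 against CDX1 cells 8 of the 10 were induced, where 22.3% of all genes were. The part of the proliferation markers in the results was not tested. Counts of members called against EV cells are therefore given with and without EV replicate 3, and so is the value of a single member where leaving it out changed its call against EV cells. In bulk RNA, fewer cells of a state and less RNA per cell cannot be told apart.

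**Figure D1:**
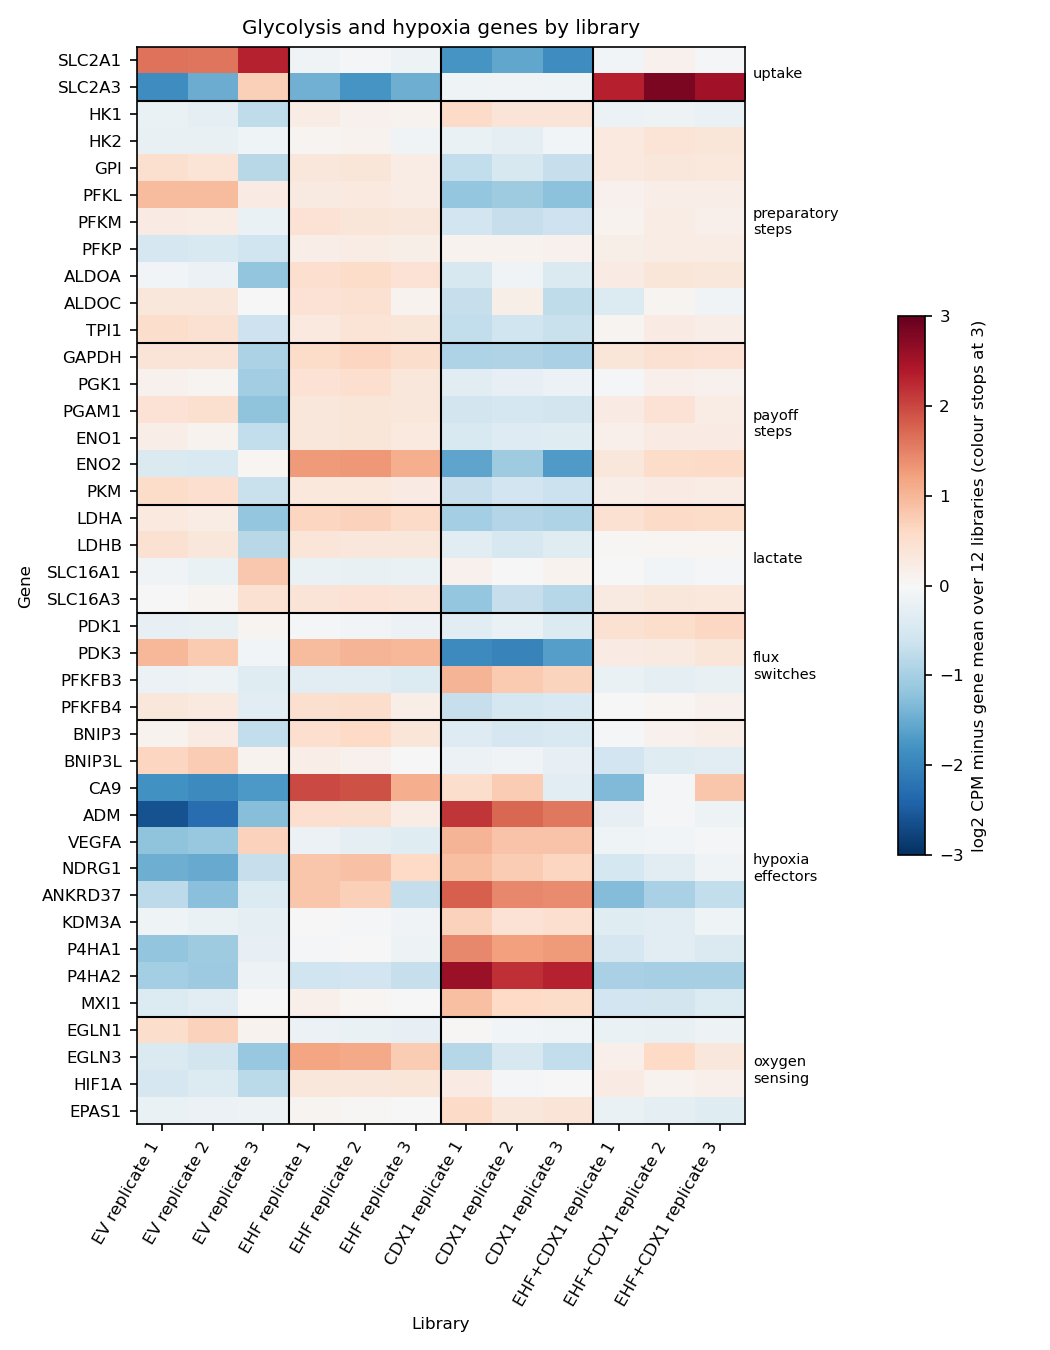
Level of each of the 40 genes (rows, grouped by role) in each of the 12 libraries (columns, 3 per line) as log2 CPM minus the gene's mean over all 12, red above and blue below that mean. P4HA2, ADM and ANKRD37 are red in the 3 CDX1 libraries, SLC2A1 and PDK3 are blue there, and EV replicate 3 is bluer than EV replicates 1 and 2 for GAPDH, PGAM1 and LDHA.

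Per length of transcript, the payoff enzymes led the list. By the geometric mean of the deposited RPKM (reads scaled by exon length and library size) over the 12 libraries, GAPDH stood at 1323, followed by ENO1 at 475, PKM at 459, ALDOA at 368, LDHB at 291 and LDHA at 231. These 6 genes lay at or above the 99th percentile of all tested genes. SLC2A3, a high-affinity glucose transporter, was lowest at 0.438 RPKM, below CA9, a cell-surface carbonic anhydrase, at 0.622 RPKM. The other 32 members lay between 1.07 RPKM for PDK3 and 176 RPKM for TPI1.

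The lines were compared gene by gene with edgeR, and a gene was called induced or repressed when edgeR put its change beyond 1.5-fold. The threshold was 0.05 after Benjamini-Hochberg adjustment across the 15853 tested genes. A second test from the same fit asked only whether a gene differed from no change. All 3 comparisons with EV cells use the same EV libraries, so they are not independent of each other.

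In EHF cells against EV cells, 6 of the 40 members were induced and 1 was repressed, where 5.68% and 2.65% of all genes were. In all, 16 members differed from no change, against 30.1% of all genes. The median log2 fold change was 0.28 over the members and -0.04 over all genes. With EV replicate 3 left out, 8 members were induced and 2 repressed, where 9.51% and 3.46% of all genes were. The 6 induced members were CA9, ADM, NDRG1, EGLN3, ENO2 and HIF1A, so 5 of them belong to the hypoxia response, and the repressed member was SLC2A1.

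In CDX1 cells against EV cells, 10 members were induced and 5 repressed, where 21.3% and 23.3% of all genes were, and 29 differed from no change, against 68.9% of all genes. The counts were thus read against a background in which most genes moved. The groups of members moved apart from each other: 8 of the 11 hypoxia effectors were induced and 0 repressed, with a median log2 fold change of 1.96, while the 15 glycolytic enzymes had a median of -0.62 with 1 induced and 2 repressed. The median over all genes was -0.03. Leaving out EV replicate 3, 11 members were induced and 15 repressed, where 26.3% and 24.8% of all genes were, and the medians were 2.28 for the effectors and -0.86 for the enzymes.

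The split between higher and lower members in this comparison also moved with the scaling. With library totals alone the median of all genes shifted by -0.34, and the share of higher genes among all calls fell from 47.8% to 30.8%. Then 6 members were induced and 14 repressed, where 2273 and 5115 of the 15853 tested genes were. With voom on quantile-normalized values 5 members were induced and 9 repressed, where 2691 and 2799 genes were. The medians of the effectors and of the enzymes kept their signs under both, at 1.64 and -1.0 with library totals and at 1.66 and -0.94 with quantile normalization.

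In EHF+CDX1 cells against EV cells, 2 members were induced and 2 repressed, where 7.3% and 3.13% of all genes were. In all, 15 members differed from no change, against 33.6% of all genes, and the median log2 fold change was 0.17. The induced members were SLC2A3 and ADM, and the repressed ones SLC2A1 and BNIP3L. Without EV replicate 3, 6 members were induced and 4 repressed, where 11.2% and 4.28% of all genes were, with PFKP, ENO2, VEGFA and NDRG1 added above and PFKL and EGLN1 added below.

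In EHF+CDX1 cells against EHF cells, SLC2A3 alone was induced and 0 members were repressed, where 2.49% and 0.189% of all genes were. In all, 10 members differed from no change, 3 higher and 7 lower, against 9.78% of all genes. At an unadjusted p under 0.05 against 1.5-fold, 1 was higher and 3 were lower, and voom and DESeq2 each called 1 higher and 0 lower. Over all tested genes voom called 366 higher and 60 lower. A fit on EHF+CDX1 and EHF libraries alone called 4 members lower: ENO2, CA9, NDRG1 and ANKRD37. Without EHF replicate 3, ANKRD37 was called lower as well, at a log2 fold change of -1.85 (edgeR adjusted p = 0.0152).

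In EHF+CDX1 cells against CDX1 cells, 11 members were induced and 9 repressed, where 22.3% and 18.7% of all genes were, and 31 differed from no change, against 67.2% of all genes. Of the 11 induced members, 10 belong to glycolysis, and 8 of the 9 repressed ones to the hypoxia response. The medians were 0.80 for the glycolytic enzymes and -1.08 for the hypoxia effectors, against 0.04 for all genes. With library totals alone the median of all genes shifted by 0.35, and the share of higher genes among all calls rose from 54.3% to 74.2%. Then 19 members were called higher and 5 lower, where 5074 and 1765 of the 15853 tested genes were. The medians were 1.16 for the enzymes and -0.72 for the effectors. The count of enzymes called higher was 4 of 15 here, where 3529 of the 15853 tested genes were. It was 11 with library totals alone and 10 with voom, where 5074 and 2499 genes were. These settings added GPI, ALDOA, TPI1, ENO1, PKM and HK2 among others.

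**Figure D2:**
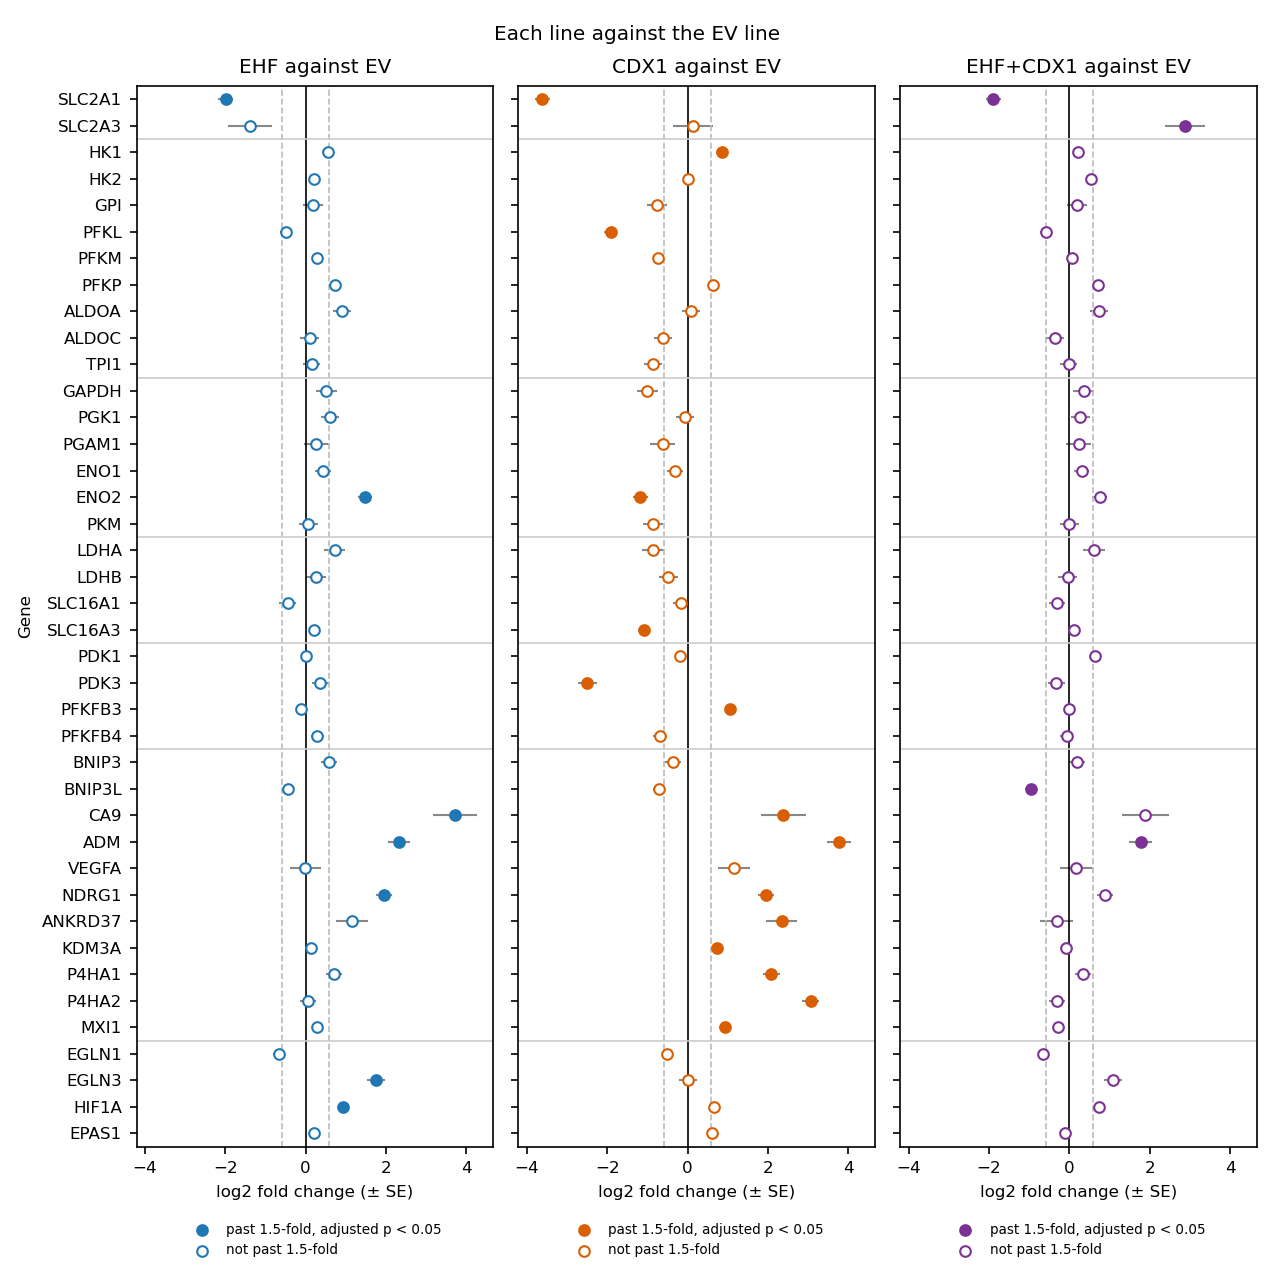
Log2 fold change against EV cells of each of the 40 genes in EHF, CDX1 and EHF+CDX1 cells (points, bars show the standard error, n = 3 libraries a line). Filled points passed the test against 1.5-fold (dashed lines), and in the CDX1 panel ADM (3.77), P4HA2 (3.06), CA9 (2.38) and ANKRD37 (2.34) lie to the right, while SLC2A1 lies to the left in all 3 panels.

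Of the glucose transporters, SLC2A1 was the most abundant in each line. SLC2A1 (GLUT1, chr1:42925353-42958868 in GRCh38.p14, Entrez gene 6513) read 785, 777 and 1276 CPM in EV cells and 237, 246 and 229.7 CPM in EHF cells. It read 74.7, 87.4 and 69.7 CPM in CDX1 cells and 240.3, 278 and 245 CPM in EHF+CDX1 cells. The EV libraries were above all others and the CDX1 libraries below all others, while EHF and EHF+CDX1 libraries overlapped. SLC2A1 fell by 1.99 on the log2 scale in EHF cells (standard error 0.18, edgeR adjusted p = 5.25e-05), by 3.61 in CDX1 cells (0.19, 4.45e-08) and by 1.89 in EHF+CDX1 cells (0.18, 6.54e-05). It was 1.72 higher in EHF+CDX1 than in CDX1 cells (0.18, 4.6e-05). Leaving out EV replicate 3, the highest EV library, the differences from EV cells were -1.72, -3.34 and -1.62, each still past 1.5-fold.

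SLC2A3 (GLUT3, chr12:7919230-7936187, Entrez gene 6515) moved otherwise, at far lower levels. It read 0.431, 0.568 and 2.79 CPM in EV cells and 0.585, 0.462 and 0.575 CPM in EHF cells. In CDX1 cells it read 1.53, 1.57 and 1.54 CPM, and in EHF+CDX1 cells 8.7, 12.1 and 9.88 CPM. The EHF+CDX1 libraries held 143 to 639 reads of the gene and lay above every other library. SLC2A3 rose in EHF+CDX1 cells by 2.87 against EV (standard error 0.49, edgeR adjusted p = 0.00273), by 4.25 against EHF (0.54, 0.000617) and by 2.72 against CDX1 cells (0.48, 0.00099). The first of these was lost in a fit on EHF+CDX1 and EV libraries alone (0.0539). EV replicate 3 decides the size of the first value, which was 4.36 without it, and the CDX1 cells were then also induced against EV cells, at 1.63 (edgeR adjusted p = 0.00106). Per length, SLC2A3 made up 0.104% of the summed RPKM of both transporters in EV cells and 3.12% in EHF+CDX1 cells, so SLC2A1 was the main transporter mRNA of the pair in each line.

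Among the preparatory steps, the 3 phosphofructokinase genes, which encode the committing step of glycolysis, went different ways. PFKL, the liver-type subunit, read 269, 269.8 and 164 CPM in EV cells and 168, 171 and 162 CPM in EHF cells. It read 62.3, 66.2 and 58.7 CPM in CDX1 cells and 152, 158 and 158 CPM in EHF+CDX1 cells. The CDX1 libraries lay below all others. PFKL fell by 1.91 in CDX1 cells (standard error 0.16, edgeR adjusted p = 4.88e-06) and was 1.33 higher in EHF+CDX1 than in CDX1 cells (0.16, 0.000275). Its differences of -0.49 in EHF cells and -0.58 in EHF+CDX1 cells from EV did not pass 1.5-fold, but without EV replicate 3 the latter did, at -0.79 (edgeR adjusted p = 0.00225).

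PFKM, the muscle-type subunit, averaged 131 ± 21.9 CPM (SD, n = 3) in EV cells, 159.7 ± 6.08 in EHF cells, 79.1 ± 3.33 in CDX1 cells and 138 ± 5.04 in EHF+CDX1 cells. It was 0.80 higher in EHF+CDX1 than in CDX1 cells (standard error 0.11, edgeR adjusted p = 0.0296), a call that was lost without CDX1 replicate 2 (0.0867), CDX1 replicate 3 (0.0544) or EHF+CDX1 replicate 2 (0.0656) and with DESeq2 (0.274). In CDX1 against EV cells its -0.73 (0.0767) did not pass 1.5-fold, and it did without EV replicate 3 (-0.86, 3.77e-05), with voom (-0.94, 0.0114) and with library totals alone (-1.09, 0.00126). PFKP, the platelet-type subunit, was lowest in EV cells, with 231 to 254 CPM, against 374 to 409.9 CPM in the libraries of the other lines. Its log2 differences from EV, 0.72 in EHF, 0.63 in CDX1 and 0.72 in EHF+CDX1 cells, differed from no change but did not pass 1.5-fold. In EHF+CDX1 cells it passed without EV replicate 3 (0.68, edgeR adjusted p = 0.0498) and with voom (0.85, 0.0233). Reads of PFKM may include some of SENP1, which overlaps it.

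HK1 and HK2 encode the hexokinases that trap glucose in the cell. HK1 averaged 89.6 ± 17.6 CPM in EV, 131 ± 5.57 in EHF, 162 ± 12.7 in CDX1 and 104 ± 1.76 in EHF+CDX1 cells. It rose by 0.85 in CDX1 cells (standard error 0.13, edgeR adjusted p = 0.0189), and that call was lost without CDX1 replicate 1 (0.80, 0.0585), with voom (0.56, 0.936), with DESeq2 (0.132) and with library totals alone (0.49, 0.644). HK2 ranged from 69.5 to 110.1 CPM over all libraries and passed 1.5-fold in 0 of the comparisons with the TMM-scaled edgeR fit. In EHF+CDX1 against CDX1 cells it passed with library totals alone (0.90, edgeR adjusted p = 0.00219) and with voom. It differed from no change in EHF+CDX1 cells against EV (0.54, standard error 0.09, edgeR adjusted p = 0.000583).

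Of the remaining preparatory enzymes, GPI and TPI1 were low in CDX1 cells and in EV replicate 3 alike. ALDOA, the main aldolase, read 1139, 1064 and 536 CPM in EV cells and 1705, 1762 and 1632 CPM in EHF cells. In CDX1 cells it read 864, 1127 and 897 CPM, and in EHF+CDX1 cells 1443, 1556 and 1535 CPM. EHF and EHF+CDX1 libraries lay above all EV and CDX1 libraries. Its differences from EV were 0.90 in EHF and 0.73 in EHF+CDX1 cells, both different from no change (edgeR adjusted p = 0.0102 and 0.0254) and neither past 1.5-fold. GPI, which converts glucose 6-phosphate to fructose 6-phosphate, read 749, 715 and 303 CPM in EV and 321 to 388 CPM in CDX1 cells. TPI1, which interconverts the triose phosphates, read 468, 443 and 212 CPM in EV and 195 to 216 CPM in CDX1 cells. Neither passed 1.5-fold in CDX1 cells with all libraries (-0.76 and -0.86, edgeR adjusted p = 0.188 and 0.0806), and both did without EV replicate 3 (-1.08 and -1.15, 4.41e-07 and 1.3e-08) and with library totals alone (-1.13 and -1.23, 0.0265 and 0.00855). ALDOC, a minor aldolase here, ranged from 29.1 to 67.9 CPM and passed 1.5-fold in 0 comparisons with all libraries. Without CDX1 replicate 2 it was lower in CDX1 than in EV cells (-0.96, edgeR adjusted p = 0.019).

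The payoff enzymes showed the same split of the EV libraries. GAPDH, which yields the NADH of glycolysis, read 3142, 3134 and 1236 CPM in EV cells and 3518, 3736 and 3456 CPM in EHF cells. It read 1268, 1285 and 1214 CPM in CDX1 cells and 3092, 3272 and 3227 CPM in EHF+CDX1 cells. EV replicate 3 fell among the CDX1 libraries, and the other EV libraries among those of EHF+CDX1 cells. GAPDH was 1.35 higher in EHF+CDX1 than in CDX1 cells (standard error 0.27, edgeR adjusted p = 0.00614). Against EV cells its value in CDX1 cells was -1.0 (0.26, 0.0504) with all libraries and -1.32 (0.05, 6.04e-11) without EV replicate 3. With library totals alone it was called lower with all libraries (-1.37, 0.00768), as it was with voom (-1.64, 0.011) but not with DESeq2 (0.308).

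ENO1, the main enolase, read 1708, 1610.2 and 887 CPM in EV cells and 1893, 1931 and 1839 CPM in EHF cells. In CDX1 cells it read 1084, 1147 and 1154 CPM, and in EHF+CDX1 cells 1651, 1781 and 1758 CPM. PKM, pyruvate kinase, read 2460, 2368 and 1055 CPM in EV cells and 2093, 2094 and 1997 CPM in EHF cells. These enzymes were lowest in EV replicate 3 and in CDX1 cells, where PKM read 1047, 1127 and 1070.3 CPM against 1916, 1978 and 1975 CPM in EHF+CDX1 cells. ENO1 passed 1.5-fold in 0 comparisons with the TMM-scaled edgeR fit of all libraries and differed from no change in EHF+CDX1 against CDX1 cells (0.62, standard error 0.19, edgeR adjusted p = 0.0126), where it passed with library totals alone (0.97, 0.0362) and with voom (1.25, 0.0305). PKM was -0.86 against EV in CDX1 cells (0.24, 0.095), -1.16 (1.3e-09) without EV replicate 3, -1.23 (0.0114) with library totals alone and -1.49 (0.0149) with voom.

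ENO2, the enolase best known from neurons, was the payoff gene with the largest differences between lines. It read 29.5, 29.4 and 41.8 CPM in EV cells and 97.9, 98.5 and 85.3 CPM in EHF cells. It read 13.4, 19.3 and 12.3 CPM in CDX1 cells and 51.1, 58.7 and 59.8 CPM in EHF+CDX1 cells, so that no 2 lines overlapped. ENO2 rose by 1.48 in EHF cells (standard error 0.18, edgeR adjusted p = 0.00107), fell by 1.17 in CDX1 cells (0.18, 0.00256) and was 1.92 higher in EHF+CDX1 than in CDX1 cells (0.18, 1.87e-05). Its 0.75 in EHF+CDX1 against EV passed 1.5-fold only without EV replicate 3 (0.93, 0.0157). PGK1 and PGAM1, a phosphoglycerate kinase and mutase, ranged from 147 to 433 and from 48.5 to 157 CPM, each lowest in EV replicate 3. PGAM1 was lower in CDX1 than in EV cells only without that library (-1.0, edgeR adjusted p = 6.2e-07), and PGK1 passed 1.5-fold in 0 comparisons with or without it.

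**Figure D3:**
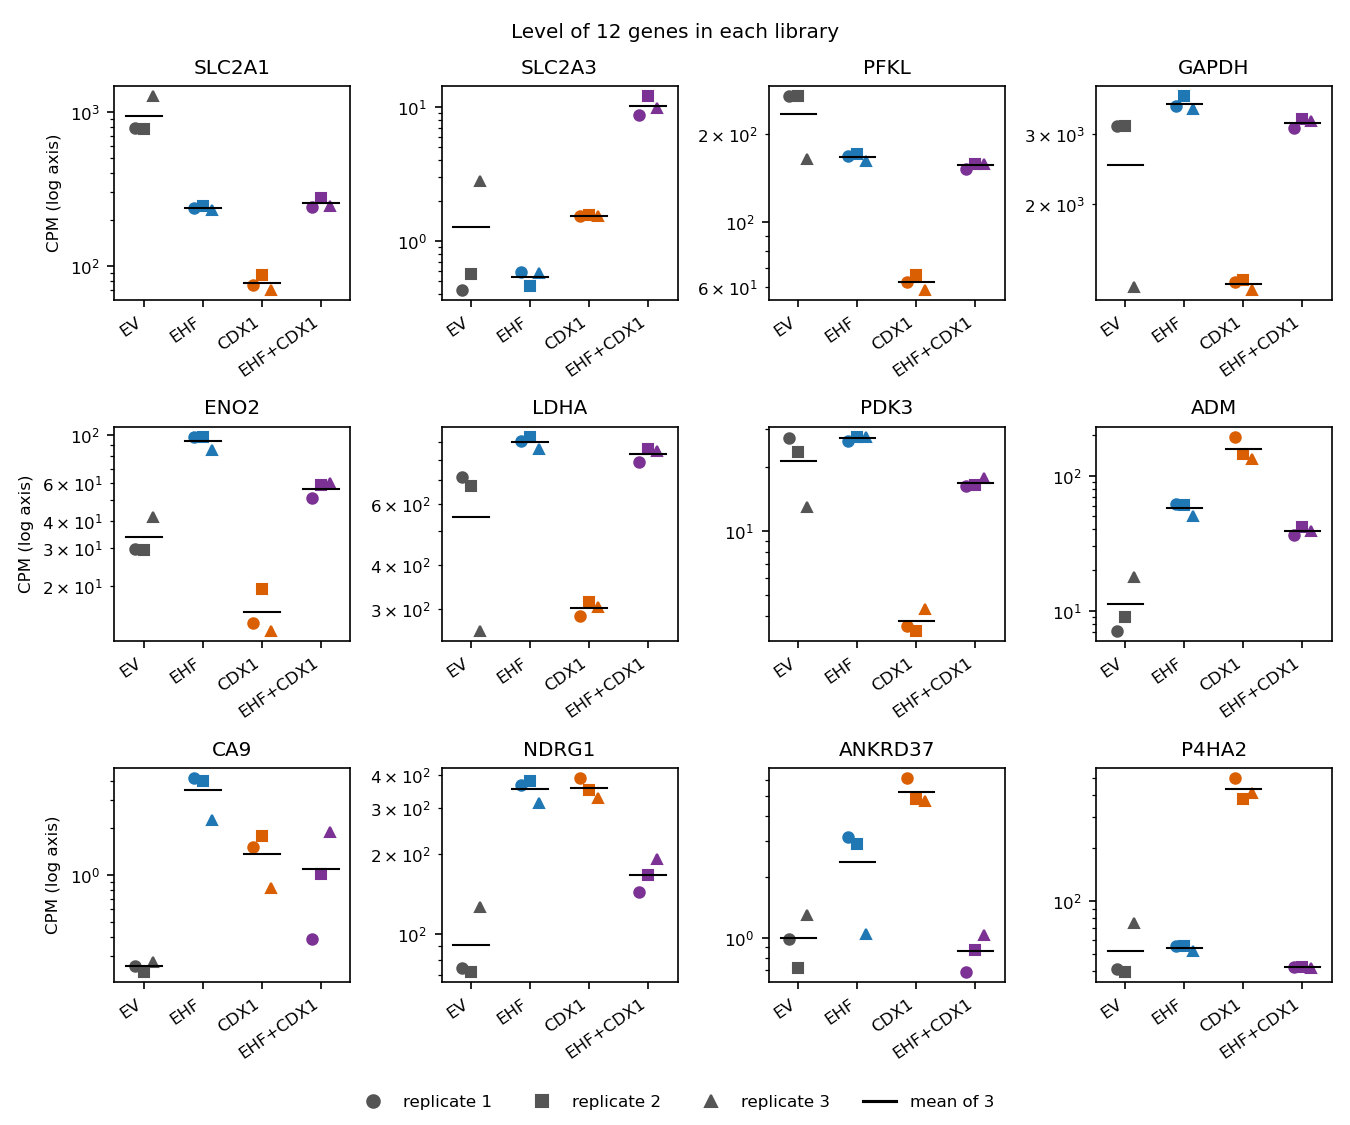
CPM of 12 members in each library on log axes (symbols for replicates 1 to 3, line for the mean of 3). CDX1 libraries lie lowest for SLC2A1, PFKL, ENO2 and PDK3 and highest for ADM, ANKRD37 and P4HA2, and EV replicate 3 (triangle) lies with the CDX1 libraries for GAPDH and LDHA.

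For lactate, LDHA, the lactate dehydrogenase subunit that favours lactate formation, read 714, 672 and 259 CPM in EV cells and 907, 933 and 858 CPM in EHF cells. It read 286, 313 and 304 CPM in CDX1 cells and 791, 858 and 851 CPM in EHF+CDX1 cells. LDHA was 1.47 higher in EHF+CDX1 than in CDX1 cells (standard error 0.28, edgeR adjusted p = 0.0039). Its -0.86 in CDX1 against EV cells passed 1.5-fold without EV replicate 3 (-1.20, 2.15e-09) and with library totals alone (-1.24, 0.0188). LDHB, the heart-type subunit, read 765, 703 and 316 CPM in EV cells, 718, 706 and 706 CPM in EHF cells, 446, 401 and 434 CPM in CDX1 cells and 576, 579 and 579 CPM in EHF+CDX1 cells. LDHB passed 1.5-fold in 0 comparisons with all libraries, and was lower in CDX1 than in EV cells without EV replicate 3 (-0.78, edgeR adjusted p = 0.000535).

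The lactate exporter SLC16A3 (MCT4) averaged 416 ± 70.9 CPM in EV, 482 ± 9.53 in EHF, 196 ± 31 in CDX1 and 451 ± 11.8 in EHF+CDX1 cells. It fell by 1.09 in CDX1 cells (standard error 0.14, edgeR adjusted p = 0.00109) and was 1.20 higher in EHF+CDX1 than in CDX1 cells (0.14, 0.000331). Its gene overlaps CSNK1D, and the strand setting of the counting is not given in the sources used here. SLC16A1 (MCT1), the transporter of the same family with high affinity for lactate, ranged from 144 to 185 CPM in 11 libraries and stood at 293 CPM in EV replicate 3, and passed 1.5-fold in 0 comparisons with all libraries.

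Of the switches of flux, PDK3, a kinase that inhibits pyruvate dehydrogenase, was repressed in CDX1 cells. It read 27.4, 23.5 and 12.9 CPM in EV cells and 26.5, 27.7 and 27.5 CPM in EHF cells. In CDX1 cells it read 3.59, 3.39 and 4.3 CPM, and in EHF+CDX1 cells 16.3, 16.5 and 17.7 CPM. The CDX1 libraries lay below all others. PDK3 (chrX:24465286-24550466) fell by 2.49 in CDX1 cells (standard error 0.23, edgeR adjusted p = 6.02e-06) and was 2.16 higher in EHF+CDX1 than in CDX1 cells (0.23, 3.03e-05). PDK1, a kinase of the same family and a known HIF target, ranged from 8.16 to 11.4 CPM in EV, EHF and CDX1 cells and from 14.7 to 16.5 CPM in EHF+CDX1 cells. Its 0.83 against CDX1 cells passed 1.5-fold (0.12, 0.0244), and did not without CDX1 replicate 1 (0.0524), CDX1 replicate 3 (0.0788) or EHF+CDX1 replicate 3 (0.0593), with DESeq2 (0.17) or with voom (0.51, 1).

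PFKFB3, which makes the activator of phosphofructokinase, averaged 148 ± 18.6 CPM in CDX1 cells and 65.2 to 71.1 CPM in the other lines. It rose by 1.06 in CDX1 cells (standard error 0.10, edgeR adjusted p = 0.000244) and was lower by as much in EHF+CDX1 than in CDX1 cells (-1.06, 0.000255). Neither call was kept with voom (0.76 and -0.72, 0.086 and 0.175) or with library totals alone (0.70 and -0.70, 0.109 and 0.115). PFKFB4, of the same family, ranged from 11.5 to 26.9 CPM and passed 1.5-fold in 0 comparisons with all libraries. With EV replicate 3 left out, it was lower in CDX1 than in EV cells (-0.87, edgeR adjusted p = 0.00438), as it was with library totals alone (-1.03, 0.0127).

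Among the hypoxia effectors, ADM, which encodes the vasodilator peptide adrenomedullin, had the largest difference between CDX1 and EV cells. It read 7.11, 8.95 and 17.9 CPM in EV cells and 61.6, 60.9 and 50.7 CPM in EHF cells. It read 194, 145 and 132 CPM in CDX1 cells and 36.7, 42 and 39.2 CPM in EHF+CDX1 cells. No 2 lines overlapped, with EV lowest and CDX1 highest. ADM (chr11:10305073-10307397, Entrez gene 133) rose by 2.32 in EHF (standard error 0.28, edgeR adjusted p = 0.000373), by 3.77 in CDX1 (0.30, 9.16e-07) and by 1.77 in EHF+CDX1 cells (0.28, 0.00326), and was lower by 2 log2 units in EHF+CDX1 than in CDX1 cells (-2.0, 0.000249). EV replicate 3 was the highest EV library, and without it the 3 differences from EV were 2.84, 4.29 and 2.29.

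P4HA2 and P4HA1 encode catalytic subunits of collagen prolyl 4-hydroxylase, the enzyme that stabilises the collagen helix. P4HA2 read 40.9, 39.5 and 75.1 CPM in EV cells and 55.4, 55.7 and 51.8 CPM in EHF cells. It read 504, 383 and 413 CPM in CDX1 cells and 42.4, 42.1 and 41.8 CPM in EHF+CDX1 cells. CDX1 libraries stood far above the rest, which overlapped. P4HA2 rose by 3.06 in CDX1 cells against EV (standard error 0.22, edgeR adjusted p = 5.83e-07), and was lower in EHF+CDX1 than in CDX1 cells (-3.36, 0.22, 4.21e-07). P4HA1 followed at a smaller size, with 42 ± 16.2 CPM in EV, 68.8 ± 3.92 in EHF, 178 ± 14.2 in CDX1 and 53.1 ± 2.73 in EHF+CDX1 cells. It rose by 2.08 in CDX1 cells (standard error 0.21, edgeR adjusted p = 1.51e-05) and was lower in EHF+CDX1 than in CDX1 cells (-1.75, 0.000109). Its 0.70 in EHF against EV cells passed 1.5-fold only without EV replicate 3 (1.07, 2.04e-05). COL1A1, a substrate gene of this enzyme, read 167 to 219 CPM in CDX1 cells and 32.6 to 73.5 CPM in EV cells. The other collagen genes among the fibroblast markers did not follow it. COL1A2 was at or near 0, and COL3A1 read at most 0.152 CPM in CDX1 and 1.764 CPM in EV cells. P4HA2 overlaps an antisense gene. The libraries were made with a directional kit, but whether the counting used the strand is not given, so reads of that gene may be included.

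CA9 (chr9:35673928-35681159, Entrez gene 768), the acid-exporting carbonic anhydrase long used as a hypoxia marker, stayed at low levels. It read 0.258, 0.237 and 0.276 CPM in EV cells, from 5 to 15 reads a library, and 4.2, 4.01 and 2.25 CPM in EHF cells. It read 1.51, 1.77 and 0.823 CPM in CDX1 cells and 0.384, 1.01 and 1.87 CPM in EHF+CDX1 cells. The EV libraries were below all others, and the EHF+CDX1 libraries overlapped the CDX1 libraries. CA9 rose by 3.71 in EHF cells (standard error 0.55, edgeR adjusted p = 0.00112) and by 2.38 in CDX1 cells (0.56, 0.00662, and 0.0689 with voom). Its 1.89 in EHF+CDX1 cells did not pass 1.5-fold (0.58, 0.106), and did so without EHF+CDX1 replicate 1 (2.38, 0.0184).

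NDRG1, a stress-induced and differentiation-associated gene, read 74.4, 71.9 and 127 CPM in EV cells and 366, 377 and 313 CPM in EHF cells. It read 389, 351 and 325 CPM in CDX1 cells and 144, 167 and 192 CPM in EHF+CDX1 cells. EHF and CDX1 cells overlapped, and EHF+CDX1 cells lay between them and EV cells. NDRG1 rose by 1.95 in EHF (standard error 0.20, edgeR adjusted p = 0.000181) and by 1.96 in CDX1 cells (0.20, 2.68e-05), and was lower in EHF+CDX1 than in CDX1 cells (-1.08, 0.0103), a call that library totals alone (-0.72, 0.16) and voom (-0.63, 0.753) did not keep. Against EV its 0.88 in EHF+CDX1 cells passed 1.5-fold only without EV replicate 3 (1.19, 2.87e-05).

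ANKRD37, a small ankyrin-repeat HIF target, read 0.991, 0.71 and 1.3 CPM in EV cells and 3.14, 2.92 and 1.05 CPM in EHF cells. It read 6.16, 4.85 and 4.73 CPM in CDX1 cells and 0.681, 0.873 and 1.04 CPM in EHF+CDX1 cells. EHF replicate 3 stood with the EV libraries, and the CDX1 libraries lay above all others. ANKRD37 rose by 2.34 in CDX1 cells (standard error 0.38, edgeR adjusted p = 0.000632) and was lower in EHF+CDX1 than in CDX1 cells (-2.65, 0.39, 0.000292). In EHF cells its 1.15 against EV passed 1.5-fold only without EHF replicate 3 (1.55, 0.0204). Its gene overlaps LRP2BP and UFSP2.

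KDM3A, a histone demethylase, and MXI1, an antagonist of MYC, rose less in CDX1 cells. KDM3A averaged 70.1 ± 6.52 CPM there and 39.8 to 46 CPM in the other lines, a difference from EV of 0.74 (standard error 0.10, edgeR adjusted p = 0.0409). That call was lost without EV replicate 2 (0.0661), EV replicate 3 (0.0558) or CDX1 replicate 1 (0.131), with voom (0.56, 0.954), DESeq2 (0.232) and library totals alone (0.39, 0.986). Its -0.82 in EHF+CDX1 against CDX1 cells (0.0111) was likewise lost without EHF+CDX1 replicate 1 (0.054), with voom (-0.66, 0.452), DESeq2 (0.0579) and library totals alone (-0.46, 0.872). MXI1 averaged 105 ± 14.3 CPM in CDX1 and 45.4 to 67.7 CPM in the other lines, and was induced in CDX1 cells against EV (0.92, standard error 0.13, edgeR adjusted p = 0.00703), a call not kept with voom (0.67, 0.489) or library totals alone (0.59, 0.393). It was lower in EHF+CDX1 than in CDX1 cells (-1.21, 0.00022).

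VEGFA, the main angiogenic growth factor, depended on EV replicate 3. It read 49.6, 52.2 and 186 CPM in EV cells, 89.6 to 102 CPM in EHF cells, 206 to 233 CPM in CDX1 cells and 104 to 109.9 CPM in EHF+CDX1 cells. With all libraries its differences from EV were -0.01, 1.16 and 0.16, none past 1.5-fold (edgeR adjusted p = 1, 0.0711 and 1). Without EV replicate 3 they were 0.91, 2.08 and 1.08, each past 1.5-fold (0.000338, 3.88e-13 and 3.45e-06).

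BNIP3L and BNIP3, receptors for the removal of mitochondria, did not follow the other effectors. BNIP3L read 71.1, 76.2 and 48.7 CPM in EV cells and 51.7, 49.1 and 44.5 CPM in EHF cells. It read 39.7, 41.9 and 37.8 CPM in CDX1 cells and 30.4, 34.8 and 36.1 CPM in EHF+CDX1 cells. BNIP3L was lower by 0.95 log2 units in EHF+CDX1 than in EV cells (-0.95, standard error 0.15, edgeR adjusted p = 0.0358). This call was lost in 10 of 15 alternatives, among them those without EV replicate 1 (0.0991) or 2 (0.138), without EHF+CDX1 replicate 1 (0.16), 2 (0.0918) or 3 (0.0604), and with DESeq2 (0.277). Leaving out EV replicate 3 gave -1.13 (6.29e-06), and BNIP3L was then also lower in CDX1 than in EV cells (-0.89, 0.000448). BNIP3 ranged from 11.4 CPM in EV replicate 3 to 29.2 CPM and passed 1.5-fold in 0 comparisons with all libraries.

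Of the HIF alpha subunits, HIF1A averaged 93.7 ± 13.1 CPM in EV, 177 ± 2.27 in EHF, 147 ± 15 in CDX1 and 156 ± 7.68 in EHF+CDX1 cells. It rose in EHF cells by 0.92 (standard error 0.11, edgeR adjusted p = 0.0194), a call lost without EHF replicate 2 (0.0511) or 3 (0.0617) and with DESeq2 (0.118), and its 0.65 in CDX1 and 0.74 in EHF+CDX1 cells differed from no change only. EPAS1, which encodes HIF-2 alpha, averaged 123 ± 11 CPM in CDX1 cells and 74.4 to 93 CPM in the other lines. It was lower in EHF+CDX1 than in CDX1 cells (-0.72, 0.0467), and this was lost without CDX1 replicate 1 (0.153) or EHF+CDX1 replicate 2 (0.113) or 3 (0.151), with DESeq2 (0.249), voom (-0.40, 1) and library totals alone (-0.36, 1). HIF1A overlaps antisense genes.

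The hydroxylases that sense oxygen differed from each other. EGLN3 averaged 2.95 ± 0.718 CPM in EV, 9.79 ± 1.51 in EHF, 2.92 ± 0.4 in CDX1 and 6.14 ± 0.973 in EHF+CDX1 cells. It rose by 1.75 in EHF cells (standard error 0.22, edgeR adjusted p = 0.00093), and its 1.08 in EHF+CDX1 against EV cells had an adjusted p of 0.0514, and 1.23 with 0.0294 without EV replicate 1. It was 1.08 higher in EHF+CDX1 than in CDX1 cells (0.0152), a call lost without CDX1 replicate 1 (0.056) or EHF+CDX1 replicate 2 (0.0634), with voom (0.69, 0.654), with DESeq2 (0.101) and with limma on the deposited log2 RPKM (0.68, 0.7). EGLN1, the main hydroxylase of HIF1A in most cells, averaged 91.4 ± 18.5 CPM in EV and 57.5 to 63.8 CPM in the other lines. Its differences from EV (-0.67 in EHF, -0.52 in CDX1 and -0.65 in EHF+CDX1 cells) differed from no change, and without EV replicate 3 those in EHF (-0.82, 0.00233) and EHF+CDX1 cells (-0.81, 0.00338) passed 1.5-fold.

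**Figure D4:**
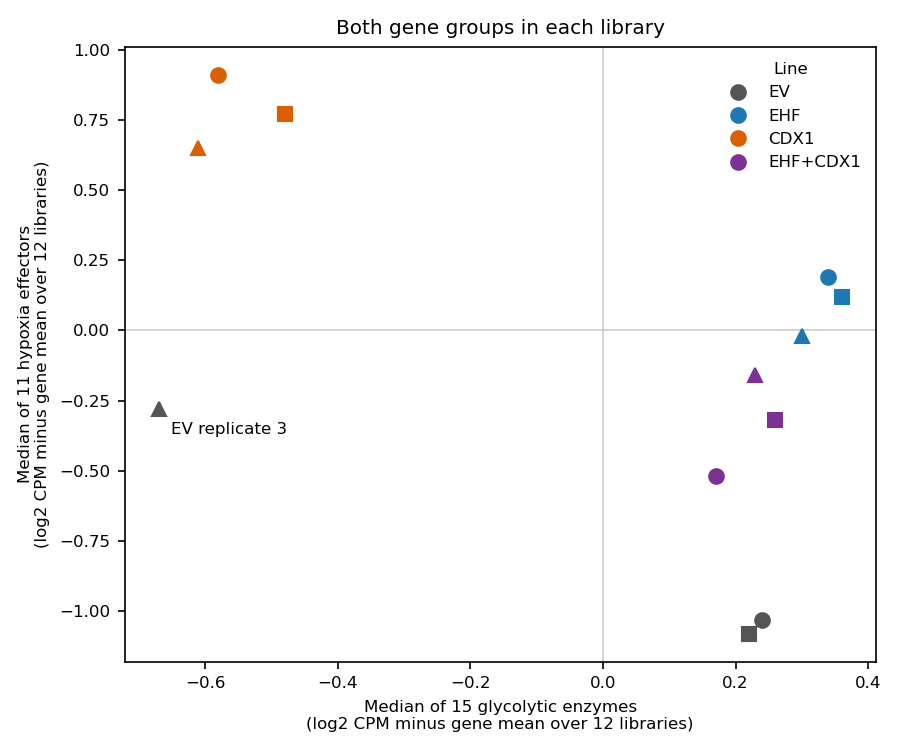
Median over the 15 glycolytic enzymes (x axis) against the median over the 11 hypoxia effectors (y axis) of log2 CPM minus each gene's mean over 12 libraries, 1 point per library (circle, square and triangle for replicates 1 to 3). CDX1 libraries lie at -0.61 to -0.48 and 0.65 to 0.91, EHF+CDX1 libraries at 0.17 to 0.26 and -0.52 to -0.16, and EV replicate 3 lies at -0.67 on the enzyme axis while EV replicates 1 and 2 lie at 0.24 and 0.22.

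The interaction asked whether EHF acted otherwise in cells with CDX1, as the difference between EHF+CDX1 and CDX1 cells minus that between EHF and EV cells. It was past 1.5-fold for 5 members upward and 11 downward, where 20.2% and 18% of all genes were, and 22 members differed from no change, against 58.5% of all genes. Of the 11 hypoxia effectors, 8 were among those called downward and 0 among those called upward. ADM rose by 2.32 with EHF in cells without CDX1 and was lower by 2 log2 units with EHF in cells with it, an interaction of -4.32 (standard error 0.39, edgeR adjusted p = 6.21e-06). P4HA2 moved by 0.06 with EHF alone, and by 0.43 without EV replicate 3, neither past 1.5-fold. The value of 0.43 differed from no change (edgeR adjusted p = 0.000785). The interaction of P4HA2 was -3.43 (0.30, 5.61e-06), and -3.79 without EV replicate 3. SLC2A1 went the other way, lower by 1.99 with EHF in cells without CDX1 and 1.72 higher with EHF in cells with it (3.71, 0.25, 7.6e-07). Because CDX1 itself read 5108 to 5639 CPM in EHF+CDX1 and 487 to 559 CPM in CDX1 cells, this contrast also holds a difference in the amount of CDX1. It also holds a difference in the starting level of EHF, which read 237 to 335 CPM in EV and 11.9 to 13 CPM in CDX1 cells. The plasmid and selection that came with EHF in EHF+CDX1 cells belong to it as well. With library totals alone the median of all genes in the interaction shifted by 0.32, and the share of higher genes among all calls rose from 52.9% to 69.2%. Then 6 members were called upward and 7 downward, where 4435 and 1970 of the 15853 tested genes were. Leaving out EV replicate 3 gave 11 upward and 12 downward, where 23.3% and 24.4% of all genes were.

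The isozymes of each step had different shares in the lines, measured per length as a percentage of the summed RPKM of the family. PFKP made up 46.7 ± 5.26% (SD, n = 3) of phosphofructokinase in EV cells, 60.8 ± 0.526% in EHF, 75.5 ± 0.76% in CDX1 and 64.9 ± 0.318% in EHF+CDX1 cells, while PFKL made up 34.9 ± 4.9% in EV and 11.2 ± 0.692% in CDX1 cells. The lowest CDX1 value of PFKP, 74.8%, lay above the highest EV value, 52.8%. LDHA made up 40.9 ± 2.3% of lactate dehydrogenase in EV, 48.3 ± 1.01% in EHF, 35.3 ± 2.42% in CDX1 and 52.7 ± 1.18% in EHF+CDX1 cells. HK1 held 63.5 ± 6.06% of both hexokinases in EV, 74.5 ± 1.69% in CDX1 and 58.3 ± 0.815% in EHF+CDX1 cells. SLC16A1 held 29.7 ± 5.8% of both lactate transporters in EV and 45.8 ± 4.7% in CDX1 cells, and P4HA2 51.3 ± 1.47% and 66.3 ± 1.24% of both prolyl 4-hydroxylases. ALDOA and ENO1 stayed the main forms in each line, at 88.5% to 95.1% and 94.2% to 97.4%. No test was run on these shares.

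**Figure D5:**
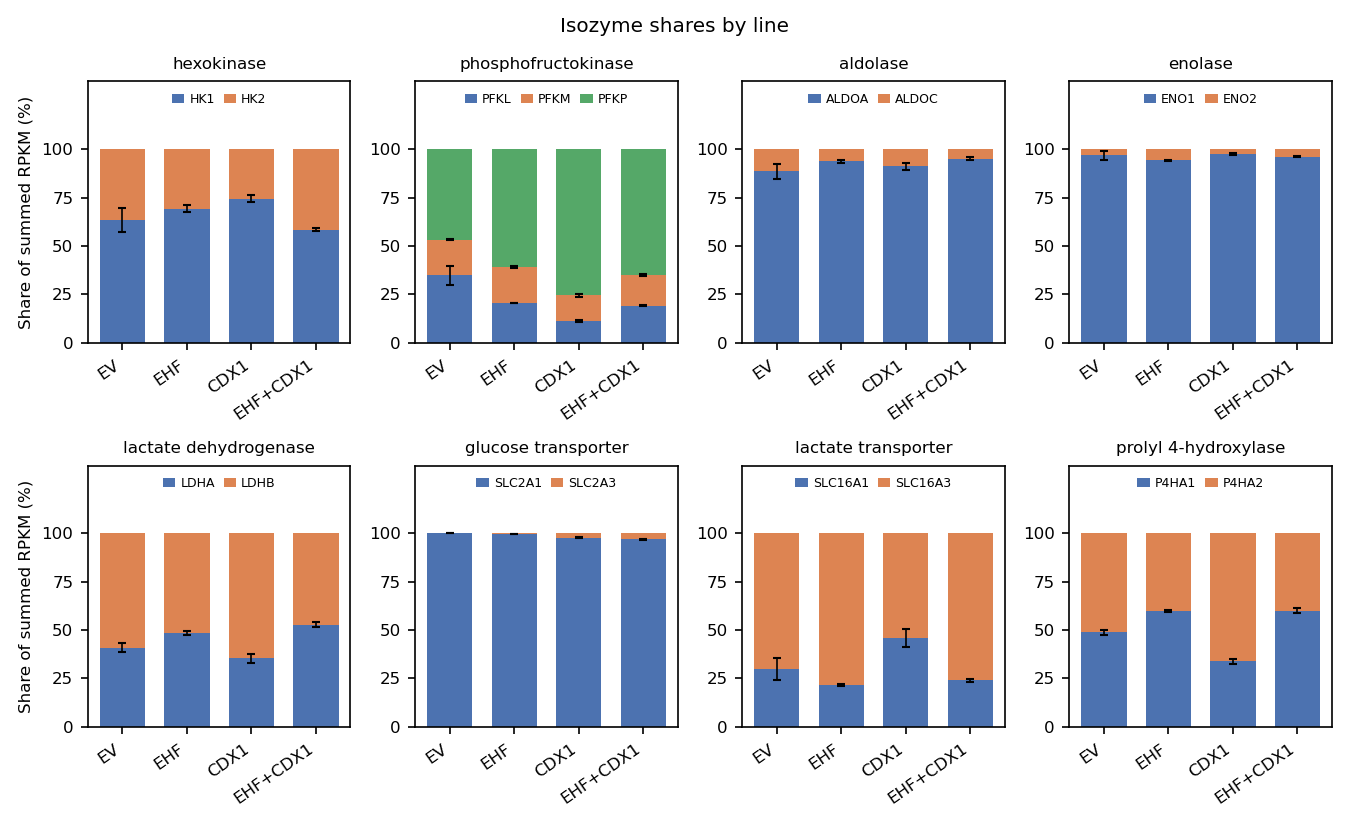
Share of each gene in the summed RPKM of its family (stacked bars, mean of 3 libraries; error bars show the SD of the segment beneath them) in the 4 lines. PFKP makes up 46.7% in EV and 75.5% in CDX1 cells, and LDHA is smallest in CDX1 cells at 35.3% and largest in EHF+CDX1 cells at 52.7%.

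The promoters of the members, whether or not they changed in CDX1 cells, were searched for the HIF core motif, ACGTG or GCGTG on either strand. RefSeq promoter windows from 250 bases before to 50 after the start were matched for 35 of the 40 members, with 65 windows. SLC2A3, SLC16A1, BNIP3L, VEGFA and NDRG1 had none. The motif was in 48.4% of all 35116 windows and in 67.7% of the members' windows, with 65.3% for glycolysis and 75% for hypoxia members. The narrower ACGTG was in 21.4% of all windows and in 38.5% of the members', and CACGTG, which overlaps it on both strands, in 7.26% and 12.3%. TTTAT, the core of CDX sites, was in 34.9% and 18.5%, and GGAAG, an ETS core, in 71.9% and 69.2%. A match is a string of letters and not a site that was shown to be bound.

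Shown here are the promoters of members with 1 listed start that were induced (ADM, ANKRD37) or repressed (PFKL, PDK3, SLC2A1) in CDX1 cells, so that those that rose can be set beside those that fell. Each runs from base 200 to base 21 before the RefSeq start on the strand of the gene (GRCh38.p14), where GENCODE lists no UTR, with matches to the HIF core in capitals.
ADM: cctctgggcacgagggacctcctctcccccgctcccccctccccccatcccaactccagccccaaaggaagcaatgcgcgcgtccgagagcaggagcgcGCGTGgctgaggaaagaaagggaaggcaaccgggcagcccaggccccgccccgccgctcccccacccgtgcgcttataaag
ANKRD37: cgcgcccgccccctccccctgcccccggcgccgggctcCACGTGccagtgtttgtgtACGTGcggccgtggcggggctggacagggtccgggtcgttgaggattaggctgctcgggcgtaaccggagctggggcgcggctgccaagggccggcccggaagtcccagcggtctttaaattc
PFKL: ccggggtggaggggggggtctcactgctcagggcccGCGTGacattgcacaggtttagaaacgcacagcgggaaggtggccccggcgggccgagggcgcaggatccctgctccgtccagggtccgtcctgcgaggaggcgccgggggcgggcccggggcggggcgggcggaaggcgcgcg
PDK3: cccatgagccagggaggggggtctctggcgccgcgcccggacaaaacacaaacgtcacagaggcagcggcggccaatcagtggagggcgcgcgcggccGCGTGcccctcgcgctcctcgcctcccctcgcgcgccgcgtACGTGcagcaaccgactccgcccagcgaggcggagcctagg
SLC2A1: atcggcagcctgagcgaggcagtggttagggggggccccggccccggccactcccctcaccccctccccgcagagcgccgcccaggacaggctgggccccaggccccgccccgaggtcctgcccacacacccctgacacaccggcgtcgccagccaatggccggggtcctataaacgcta
These lie at chr11:10304873-10305052 (plus strand), chr4:185396641-185396820 (plus), chr21:44299853-44300032 (plus), chrX:24465086-24465265 (plus) and chr1:42958889-42959068 (minus). ADM holds 1 match that begins 101 bases before the start, PFKL 1 that begins 164 bases before it, and PDK3 2 that begin 102 and 61 bases before it. ANKRD37 holds a CACGTG that begins 162 bases before the start and is read on both strands, and a further ACGTG 143 bases before it. No match was in the 200 bases before the start of SLC2A1 or of P4HA2. CA9, P4HA1 and ENO2 each held 1 match, beginning 18, 86 and 118 bases before the start. Matches thus occurred beside genes that rose and genes that fell.

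Other genes of the same pathways, taken from fixed lists, were counted by the same test. Of 36 tested genes of glycolysis, gluconeogenesis and pyruvate use, 3 were induced and 1 repressed in EHF+CDX1 against EV cells, with a median of -0.10, where 7.3% and 3.13% of all genes were. Without EV replicate 3, 4 were induced and 2 repressed, with a median of -0.14, where 11.2% and 4.28% of all genes were. PDK4, a pyruvate dehydrogenase kinase, rose from 0.898 ± 0.119 to 2.18 ± 0.265 CPM (log2 fold change 1.30, standard error 0.29, edgeR adjusted p = 0.0404). The others counted as induced with all libraries, FBP1 and PCK1 of glucose synthesis, passed the filter on low counts only through EHF+CDX1 cells. Their calls follow in part from that filter, so they are given as levels and the count of induced genes is not read as a result. FBP1 read 5.67 ± 0.0889 CPM in EHF+CDX1 cells and 0.22 ± 0.0837 CPM in EV cells. PCK1 read 1.53 ± 0.665 CPM in EHF+CDX1 cells and was at or near 0 in EV cells. PDP1, which reactivates pyruvate dehydrogenase, was repressed (-0.86, standard error 0.09, edgeR adjusted p = 0.0164). In CDX1 cells 3 of the 36 were induced and 14 repressed, with a median of -0.50, where 21.3% and 23.3% of all genes were. Leaving out EV replicate 3 gave 6 and 16, with a median of -0.30, where 26.3% and 24.8% of all genes were.

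Of 8 tested pentose phosphate genes 0 passed 1.5-fold in EHF+CDX1 cells in either direction (edgeR, with 2 different from no change, 1 lower at an unadjusted p under 0.05, and 0 called by voom or DESeq2), and 4 were repressed in CDX1 cells (PGLS, PGD, TALDO1 and H6PD, named after their values were seen). Of 46 further hypoxia-inducible genes, 10 were induced and 0 repressed in EHF+CDX1 against EV cells, and 18 were induced and 11 repressed in CDX1 cells, with medians of 0.25 and 0.28. Without EV replicate 3 these counts were 16 and 1 in EHF+CDX1 cells and 22 and 10 in CDX1 cells, with medians of 0.42 and 0.60. The shares of all genes were 7.3% and 3.13% in EHF+CDX1 and 21.3% and 23.3% in CDX1 cells, or 11.2% and 4.28% and 26.3% and 24.8% without EV replicate 3. BHLHE41, a circadian repressor, was among those induced in EHF+CDX1 cells (3.68, standard error 0.32, edgeR adjusted p = 1.31e-05). NRN1 passed the filter on low counts only through EHF+CDX1 cells, where it read 1.61 ± 0.533 CPM, against 0.20 ± 0.0961 CPM in EV cells. The 46 genes thus take in a gene that the filter let through only where it was high. Among 15 tested components of the HIF pathway, ARNT2, a partner of HIF alpha subunits, was repressed in EHF+CDX1 cells (-1.35, 0.17, 0.00129) and the other 14 were not called, while 5 were induced and 2 repressed in CDX1 cells.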

How the data were processed

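Poly(A) RNA of 12 libraries, 3 per line, was analysed from the count table that the authors deposited, beside a deposited table of log2 RPKM. The authors aligned reads to GRCh38/hg38 with Subread (2.0.0 in the submitters' processing notes), kept uniquely mapped reads, counted RefSeq 38.2 exons with featureCounts 2.0.0 and made log2 RPKM from quantile-normalized limma voom values. Members with processed pseudogenes, such as GAPDH, may lose reads, and 20 of 40 overlap another RefSeq gene. Counts were fitted here with edgeR 4.0.16 in R 4.3.3 (quasi-likelihood, TMM factors, all 12 libraries in 1 fit) after the filter of 0.5 CPM in 3 libraries, which left out genes holding 0.0585% of counts. Calls used glmTreat against 1.5-fold with Benjamini-Hochberg adjustment at 0.05. Standard errors come from the test against no change. limma 3.58.1 and DESeq2 1.42.0 were alternatives. Totals from 13523007 to 74186741 set the precision, and SLC2A3, CA9 and ANKRD37 rest on the fewest reads. All members are named, with values in each library for those that passed 1.5-fold in EHF+CDX1 against EV, for the 3 highest and 3 lowest called in each other comparison and for the 6 with the highest RPKM; VEGFA, GPI, TPI1 and PDP1 were added after their values were seen. The members and lists were chosen with earlier results of these data known. Scripts were tested on simulated data.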

Additional observations from a re-analysis of the deposited data

Results flagged for a closer look

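The effect of EHF differed between cells with and without CDX1 for 16 members, by the edgeR test of the interaction against 1.5-fold. Upward interactions on the log2 scale were 4.1 for SLC2A3, 3.71 for SLC2A1, 1.82 for PFKL, 1.8 for PDK3 and 0.99 for SLC16A3. Downward ones were -4.32 for ADM, -4.2 for CA9, -3.8 for ANKRD37, -3.43 for P4HA2, -3.03 for NDRG1, -2.45 for P4HA1, -1.5 for MXI1, -1.18 for HK1, -0.95 for KDM3A, -0.94 for PFKFB3 and -0.94 for EPAS1. Without EV replicate 3 the value of SLC2A3 was 2.62, and without CDX1 replicate 1 that of SLC16A3 was 0.86 (edgeR adjusted p = 0.0605). The calls of HK1, KDM3A, EPAS1 and PFKFB3 were lost with voom, with limma on the deposited log2 RPKM and with library totals alone. DESeq2 lost those of PFKFB3 and SLC16A3. The call of PDK3 was lost with voom and with limma on the deposited log2 RPKM. The amount of CDX1 differed between EHF+CDX1 and CDX1 cells, and the starting level of EHF between EV and CDX1 cells. The part of either in these values cannot be told apart.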

How the results depend on the processing

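The 123 member results that differed from no change with all libraries were followed through the alternatives. In 1955 values none of these changed direction: 1728 kept their side of the threshold, 91 lost it and 136 gained it. The test against no change was 1 of the alternatives and had also chosen the 123 results. Its outcome was therefore fixed in advance, and 60 of the 136 gains came from it. Results that did not differ from no change are not in this count, and some of them did change direction. Without EV replicate 3, SLC2A3 in EHF against EV cells went from -1.38 to 0.11. Counts of members (induced, then repressed) that moved by more than 1.5 times are given by setting. Tested against no change, they were 11 and 4 in EHF+CDX1 against EV, 12 and 4 in EHF against EV, 15 repressed in CDX1 against EV, 3 and 7 in EHF+CDX1 against EHF, 20 induced in EHF+CDX1 against CDX1 and 9 upward interactions. With limma voom on quantile-normalized counts there was 1 repressed in EHF+CDX1 against EV, 5 and 9 in CDX1 against EV, 5 repressed in EHF+CDX1 against CDX1 and 7 downward interactions. Limma on the deposited log2 RPKM gave 1 repressed, 5 induced, 5 repressed and 7 downward in the same order. DESeq2 gave 1 repressed in EHF+CDX1 against EV. A fit on the compared lines alone gave 1 and 1 in EHF+CDX1 against EV and 4 repressed in EHF+CDX1 against EHF. Library totals alone, an alternative chosen after seeing the data, gave 1 repressed in EHF+CDX1 against EV, 6 and 14 in CDX1 against EV, 1 repressed in EHF+CDX1 against EHF, 19 and 5 in EHF+CDX1 against CDX1 and 7 downward interactions. The causes were not tested. Leaving out 1 library at a time gave ranges of 2 to 6 higher in EHF+CDX1 against EV, 1 to 4 lower in EHF+CDX1 against EV, 5 to 8 higher in EHF against EV, 1 to 2 lower in EHF against EV, 8 to 11 higher in CDX1 against EV, 5 to 15 lower in CDX1 against EV, 1 to 1 higher in EHF+CDX1 against EHF, 0 to 1 lower in EHF+CDX1 against EHF, 9 to 11 higher in EHF+CDX1 against CDX1, 8 to 9 lower in EHF+CDX1 against CDX1, 4 to 11 higher in the interaction, 11 to 12 lower in the interaction.

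The replicate block kept counts such as 3 and 2 in EHF+CDX1 against EV within 1.5 times, and the 18 same-number correlations lay between -0.065 and 0.08, so the numbers do not pair the libraries. With the block, EGLN3 in EHF+CDX1 (1.07, edgeR adjusted p = 0.0414) and VEGFA in CDX1 cells (1.31, 0.0466) passed 1.5-fold against EV, and KDM3A in CDX1 cells (0.74, 0.0504) did not. Depth limits CA9, SLC2A3 and ANKRD37, and EV replicate 3 and the scaling of the CDX1 libraries limit the counts of glycolytic enzymes called.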
